A study of Gallus gallus with 30 samples.

Results

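The change of the breast muscle transcriptome from 1 d to 2 w after hatch was followed in broilers and in layers. The comparison took every array of the 1 d and 2 w ages, 12 of 30 in the series, and asked which genes moved in both lines and which moved in 1 line alone. Total RNA came from the Pectoralis major, the large breast muscle that drives the downstroke of the wing, of male Arbor Acres (AA) broilers, a line bred for meat, and male White Leghorn layers, which are kept for their eggs. At each age the RNA of 5 males of a line was combined, and each of the 4 pools was hybridised to 3 Affymetrix Chicken Genome Arrays. The 3 arrays of a pool are therefore technical replicates, and each line had 1 pool at 1 d and 1 pool at 2 w. Both lines ate the same commercial layer diet. Chicks of 1 d were under constant light at the highest temperature of the study, and birds of 2 w were on a daily light and dark cycle at a lower temperature, so that age, lighting and temperature cannot be told apart.

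In the days after hatch a chick passes from the lipids of the egg yolk to a feed rich in starch. Its breast muscle grows mainly by enlargement of existing fibres, which satellite cells, the stem cells of muscle, supply with nuclei. Muscle of young birds still contains myosins and other contractile proteins of embryonic and slow type, and the mature chicken breast is made almost wholly of fast fibres that gain their energy from glycogen and glucose.

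The values are log2 signals per probe set, and a difference of 1 is a 2-fold change. The lower quartile of the arrays lay between 3.02 and 3.23 and the median between 4.08 and 4.20, so that values near 3 are at the dim end of the arrays, where a change is understated. No detection calls were used. The markers of muscle fibres that could be named, TNNT3, MYLPF and ACTA1, were at 11.56 to 13.79 in all 4 pools. Markers of fibroblasts, Schwann cells, white blood cells and cartilage differed between pools, and their values stand with the genes of those cells. Since the tissue was taken whole, fewer cells of a type and less RNA per cell cannot be told apart.

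A shared change was tested with limma on the means of the 10 pools of the series, with age and line as factors, so that the difference between 2 w and 1 d was averaged over both lines and the spread was taken from how far the pools departed from parallel courses. At an adjusted p (Benjamini-Hochberg) under 0.05, 3920 probe sets rose (10.2% of the 38439 tested) and 5226 fell (13.6%). All of them moved in the same direction in both lines. With 1 probe set per named gene, the brightest, 1610 of 13009 genes rose (12.4%) and 2301 fell (17.7%), and these shares are the background for every list below. The count rested on each of the pools. Without the broiler 2 w, the layer 1 d or the layer 2 w pool it was 4307, 5722 or 4230 probe sets in place of 9146, and 3004 probe sets were called whichever of the 4 pools was left out. The same was true of 1379 of the 3911 genes called. For genes named below for a shared change, a call that was lost when 1 of the 4 pools was left out is marked with the largest adjusted p that resulted.

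Within a line there was no replicate pool and no test. A probe set was counted there when it changed at least 2-fold and the 3 arrays of 1 d did not overlap the 3 arrays of 2 w. In broilers 832 probe sets rose in this way (2.16%) and 1708 fell (4.44%). In layers 805 rose (2.09%) and 1840 fell (4.79%). Both lines shared 523 of these increases (1.36% of the probe sets tested), which were 62.9% of the broiler and 65.0% of the layer increases. They shared 1111 decreases (2.89%), or 65.1% of those in broilers and 60.4% of those in layers. Across all probe sets the changes of both lines had a Pearson r of 0.82, a description over probe sets that share pools and are not independent replicates.

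**Figure D1:**
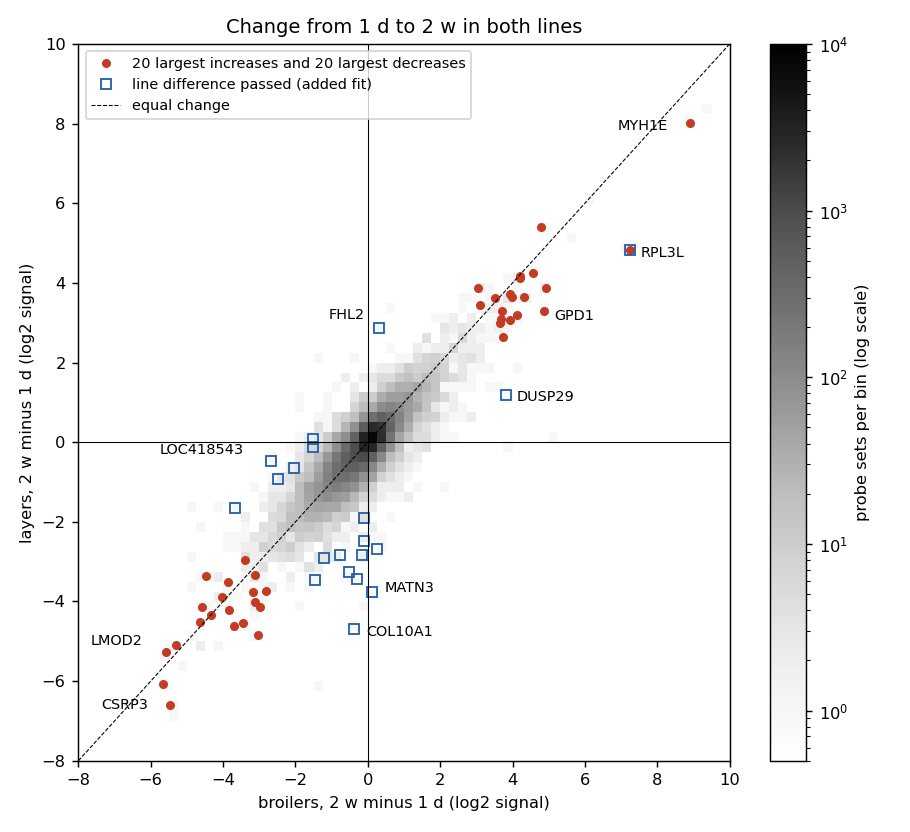
Change from 1 d to 2 w (log2 signal, 2 w minus 1 d) in broilers (x axis) and layers (y axis), with the number of probe sets per bin in grey on a log scale. The 20 largest shared increases and the 20 largest decreases (red) have the same sign in both lines, and the changes of RPL3L, LCAT and GPD1 lie farthest from the line of equal change, with MYH1E at 8.91 and 8.01 at the top right, while COL10A1 at -0.38 and -4.68 and FHL2 at 0.30 and 2.88 (blue squares) lie off it.

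The largest change of all was that of MYH1E, which encodes a fast myosin heavy chain, the motor protein of the thick filament. It was read at 3.99, 4.21 and 4.11 on the 3 arrays of the broiler 1 d pool and at 13.02, 12.89 and 13.10 at 2 w. In layers it was read at 5.46, 4.74 and 4.54 at 1 d and at 12.98, 12.91 and 12.89 at 2 w. The 1 d arrays were thus near or little above the median of all probe sets, and the 2 w arrays were among the brightest. The mean increase was 8.46 ± 0.20 (SE, 352-fold, limma adjusted p = 1.63e-07), and the other probe set of the gene rose by 9.27 in broilers and 8.46 in layers.

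At the same time 3 related heavy chain genes fell. MYH1D was at 9.92 ± 0.81 (SD of 3 arrays) in broilers and 10.68 ± 0.30 in layers at 1 d, and at 5.59 ± 0.25 and 6.34 ± 0.24 at 2 w. Its mean decrease was 20.2-fold (adjusted p = 8.14e-06), although a dimmer probe set of MYH1D stayed between 2.89 and 2.97 in all 4 pools. MYH1B was 9.32-fold lower at 2 w (adjusted p = 0.00421), and its other probe sets fell by 5.08 to 6.96. MYH1C was 7.65-fold lower (adjusted p = 0.00693). The call of MYH1C was lost without the broiler 2 w pool (adjusted p = 0.0635). The heavy chain genes are near copies of each other and most of their probe sets, including the brightest of MYH1B, MYH1C, MYH1D and MYH1E, carry the maker's suffix for possible binding of other transcripts, so that part of each signal can come from another member.

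The list of fast fibre genes held 14 measured genes, of which 6 rose and 3, the heavy chains just named, fell. Its median change was 0.24 in broilers and 0.27 in layers, against 0.03 and 0.04 over all genes. MYOZ1, a calsarcin of fast fibres, rose by 1.51 on average, a call lost with 1 pool left out (adjusted p = 0.227). The other increases, of MYL1, TNNI2, TPM1 and TNNT3, were between 0.27 and 0.44, and the calls of MYL1 and TNNI2 were lost with 1 pool left out (largest adjusted p = 0.129 and 0.0830), that of MYL1 without any of the 4. TNNT3, fast troponin T, rose by 0.21 in broilers and 0.34 in layers from levels near 13 (adjusted p = 0.0356), a call lost without the broiler 2 w, layer 1 d or layer 2 w pool (largest adjusted p = 0.179).

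Contractile genes of slow fibres and of heart showed the largest median decrease of any list, -1.66 in broilers and -1.47 in layers. Of 15 measured members 8 fell and 2 rose. CSRP3, a LIM protein of the Z disc, was read at 8.75, 8.97 and 8.33 in broilers and at 10.07, 9.77 and 9.56 in layers at 1 d. At 2 w the arrays gave 3.26, 3.26 and 3.11 in broilers and 3.03, 3.53 and 3.03 in layers, at the dim end. The mean decrease was 65.7-fold (-6.04 ± 0.87, SE, adjusted p = 0.00141).

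MYL10, a regulatory myosin light chain that belongs to no list, fell from 8.81 ± 0.03 to 3.14 ± 0.16 in broilers, and 9.17 ± 0.22 to 3.10 ± 0.20 in layers (58.3-fold, adjusted p = 0.00975). MYL3, an essential light chain of slow fibres, was 17.7-fold lower (adjusted p = 0.00766). MYBPC1, the slow myosin binding protein C, was 16.3-fold lower (adjusted p = 0.00834). TNNI1, slow troponin I, fell by 1.80 in broilers and 2.87 in layers (adjusted p = 0.0171).

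The calls of these 4 genes were lost without the layer 2 w pool, at adjusted p = 0.0932, 0.0767, 0.0775 and 0.139 in the order given. That of MYL10 was also lost without the broiler 1 d pool (adjusted p = 0.0587) and that of TNNI1 without the layer 1 d pool (adjusted p = 0.0818). In the layer pool of 4 w, which enters the fit, MYL10 was at 9.38 and MYL3 at 7.13, near the layer level of 1 d, while both were at 3.36 and 2.83 in broilers of 4 w. MYL2, the regulatory light chain of slow and heart muscle, was 3.01-fold lower at 2 w (adjusted p = 7.24e-05). TPM3, slow tropomyosin, was 2.35-fold lower (adjusted p = 0.000366).

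TNNC1, the troponin C of slow and heart muscle, went against its list. It increased from 10.35 ± 0.06 to 12.95 ± 0.05 in broilers, and 9.91 ± 0.07 to 12.82 ± 0.01 in layers (6.75-fold, adjusted p = 2.17e-06). CASQ2, cardiac calsequestrin, rose by 0.49 and 0.69 (adjusted p = 0.00774, and 0.0672 without the layer 2 w pool).

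Among genes of the Z disc, M band and filament caps, 6 of 22 rose and 7 fell. LMOD2, leiomodin 2, which nucleates actin filaments, fell from 9.63 ± 0.63 to 4.06 ± 0.28 in broilers, and 8.97 ± 0.30 to 3.71 ± 0.32 in layers (42.8-fold, adjusted p = 8.77e-06). MYOM3, a myomesin of the M band, fell by 2.95 and 1.47. PDLIM5, a Z disc adaptor, rose 5.32-fold (adjusted p = 6.46e-06), and UNC45B, a chaperone of myosin, rose by 0.88 and 1.33. FHL1, a LIM protein of muscle outside the list, fell 15.5-fold (limma adjusted p = 7.18e-05), although of its 2 probe sets only 1 was called. IGFN1, an immunoglobulin domain protein of muscle, rose by 3.51 and 3.62.

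Genes known from embryonic or regenerating muscle fell in 7 of 16 cases and rose in 3. NCAM1, an adhesion molecule of young fibres and nerve endings, was 4.27-fold lower (adjusted p = 1.55e-05). CHRNG, the fetal subunit of the acetylcholine receptor, was 2.75-fold lower (adjusted p = 0.00121). ACTC1, cardiac actin, which is also made by embryonic skeletal muscle, rose from 11.73 to 13.12 in broilers, and 11.05 to 12.92 in layers (adjusted p = 0.00557, and 0.0630 without the layer 2 w pool).

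Several genes fell while a relative of the same family rose, and 8 such pairs, chosen after their values were seen, were set side by side. One pair, besides MYH1D and MYH1E, was of ribosomal proteins. RPL3, a protein of every ribosome, was at 12.01 to 12.46 on the 6 arrays of 1 d and at 10.56 to 11.15 on those of 2 w (2.67-fold lower, adjusted p = 0.000274). RPL3L, known in mammals as the form that replaces it in striated muscle, was read at 4.45, 4.00 and 4.34 in broilers and 7.21, 6.93 and 6.65 in layers at 1 d, and at 11.36 to 11.88 on the 6 arrays of 2 w. No array of 1 d came near those of 2 w in either gene. The increase of RPL3L was 65.3-fold (adjusted p = 0.000109).

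The other pairs moved in the same way. MYOZ2, the calsarcin of slow fibres, fell 5.61-fold and MYOZ3, a calsarcin of fast fibres, rose 15.7-fold (adjusted p = 0.0288 and 9.77e-06). LDHB, the heart form of lactate dehydrogenase, fell 3.44-fold and LDHA, the muscle form, rose 2.16-fold (adjusted p = 3.59e-05 and 0.000876). TMOD1 and TMOD4, which cap actin filaments, changed by -0.84 ± 0.14 and 1.89 ± 0.22 (SE, adjusted p = 0.00317 and 0.000449). AMPD3 and AMPD1, deaminases of AMP in red cells and in muscle, changed by -0.84 and 1.85. CKB, the brain form of creatine kinase, and CKMT2, the mitochondrial form of muscle, changed by -0.93 and 1.51. The calls of MYOZ2, AMPD3 and CKB were lost when 1 pool was left out, at adjusted p = 0.204, 0.122 and 0.0593.

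**Figure D2:**
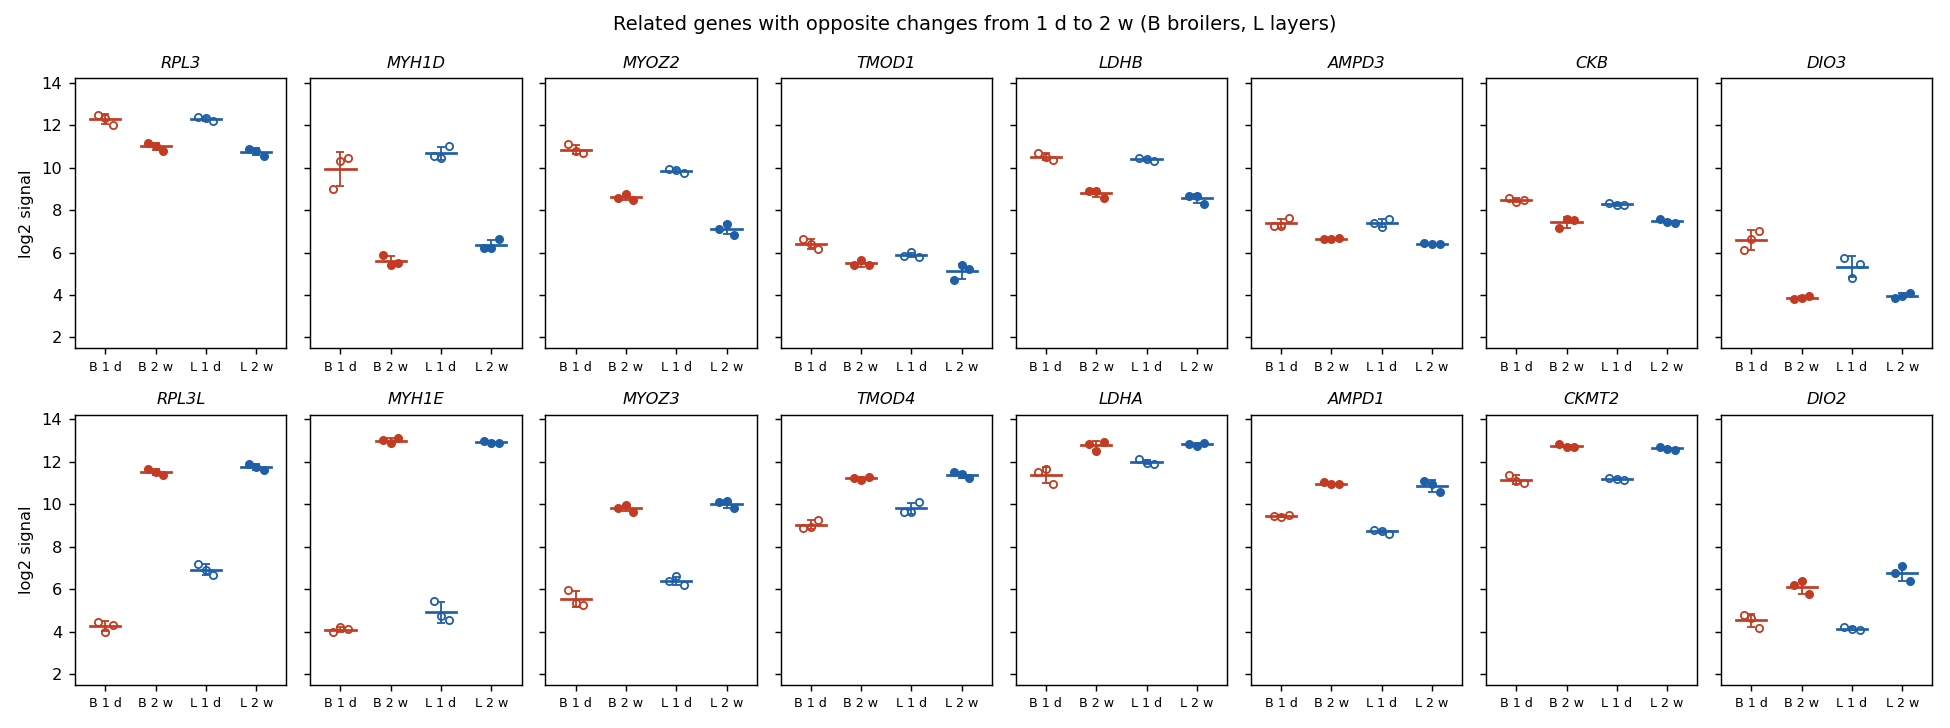
Log2 signal (y axis) of 8 pairs of related genes on the 3 arrays of each pool (B broilers, red, and L layers, blue; open points 1 d, filled points 2 w), with the mean and SD of the 3 arrays. In the upper row the gene fell in both lines and in the lower row its relative rose, as for RPL3 and RPL3L.

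The fuel genes moved apart. Of 32 measured genes of glycolysis and glycogen use, 17 rose and 5 fell, with a median change of 0.91 in broilers and 0.38 in layers. GPD1, the glycerol phosphate dehydrogenase that carries reducing power to mitochondria, rose from 6.49 ± 0.29 to 11.35 ± 0.18 in broilers, and 8.08 ± 0.12 to 11.36 ± 0.12 in layers (16.9-fold, adjusted p = 0.000104). The lines thus met at 1 level at 2 w from different levels at 1 d.

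All 3 measured subunits of phosphorylase kinase, the switch of glycogen breakdown, rose. PHKA1 rose 11.4-fold (adjusted p = 1.39e-05), PHKB 5.17-fold (adjusted p = 1.97e-05) and PHKG1 3.49-fold (adjusted p = 0.000210). FBP2, the muscle fructose bisphosphatase, rose 9.05-fold, PGM1, a phosphoglucomutase, 3.96-fold and PFKM, the muscle phosphofructokinase, 3.15-fold (adjusted p at most 0.000107). BPGM, a mutase of glycolysis that makes bisphosphoglycerate and was on no list, rose from 7.10 to 11.65 in broilers, and 7.35 to 11.61 in layers (21.2-fold, adjusted p = 2.61e-07), although 1 of its 2 probe sets was not called. SLC2A1, a glucose transporter, fell by 0.51 and 1.02 (adjusted p = 0.0447, and 0.283 with 1 pool left out).

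Fatty acid oxidation went the other way. Of 29 measured genes 15 fell and 2 rose, with a median change of -0.59 in broilers and -0.61 in layers. PPARGC1A, a coactivator that drives the making of mitochondria, fell from 9.15 ± 0.22 to 6.23 ± 0.33 in broilers, and 9.01 ± 0.16 to 6.38 ± 0.20 in layers (6.83-fold, adjusted p = 5.54e-05). PPARA, the nuclear receptor that fatty acids activate, was 4.14-fold lower (adjusted p = 1.11e-05).

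The enzymes HADHB and ACAA2, which catalyse the last steps of a turn of beta oxidation, were 5.25-fold and 5.31-fold lower (adjusted p = 6.63e-05 and 9.77e-06). ETFDH, which passes electrons on to the respiratory chain, was 3.61-fold lower, and ACADL, a dehydrogenase of long chains, 3.41-fold lower. UCP3, an uncoupling protein of muscle mitochondria, rose from 7.20 to 9.48 in broilers, and 6.77 to 9.22 in layers (adjusted p = 0.00752, and 0.0656 without the broiler 2 w pool). The other member that rose was EHHADH, a peroxisomal enzyme (adjusted p = 0.0184, and 0.135 with 1 pool left out).

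Lipid uptake genes fell with them. CD36, a fatty acid receptor of the membrane, fell from 10.57 ± 0.11 to 7.12 ± 0.24 in broilers, and 11.01 ± 0.10 to 6.47 ± 0.31 in layers (16.0-fold, adjusted p = 0.000115). LPL, which frees fatty acids from lipoproteins, and PLIN2, which coats lipid droplets, were each 3.63-fold lower (adjusted p = 0.000226 and 0.00232). On the whole list of lipid uptake and synthesis, which also holds fat cell genes, 9 of 30 fell and 4 rose. The markers of fat cells, ADIPOQ, FABP4, PLIN1 and PPARG, gave no shared call by their brightest probe sets. Their summed signal was 9.94 in both pools of 1 d and 10.03 and 9.48 at 2 w in broilers and layers. Most of it came from ADIPOQ, at 9.14 to 9.73 in the 4 pools. FABP4 did not move alike in the lines, with 1.25 in broilers and -0.33 in layers, and 1 of the 4 probe sets of PLIN1 rose.

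The citrate cycle and the respiratory chain fell less. Of 65 measured genes 21 fell and 3 rose, but the median change was only -0.13 in broilers and -0.19 in layers, and 8 of the 24 calls held whichever pool was left out. COX6A1, a subunit of cytochrome oxidase, was 2.93-fold lower (adjusted p = 8.42e-05) and SUCLG2, a subunit of succinyl-CoA ligase, 2.58-fold lower. NDUFA8, NDUFS6 and UQCR10, subunits of complexes I and III, rose by 0.40 to 0.65 on average, and of these NDUFS6 held whichever pool was left out while NDUFA8 and UQCR10 did not (largest adjusted p = 0.154 and 0.0989).

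**Figure D3:**
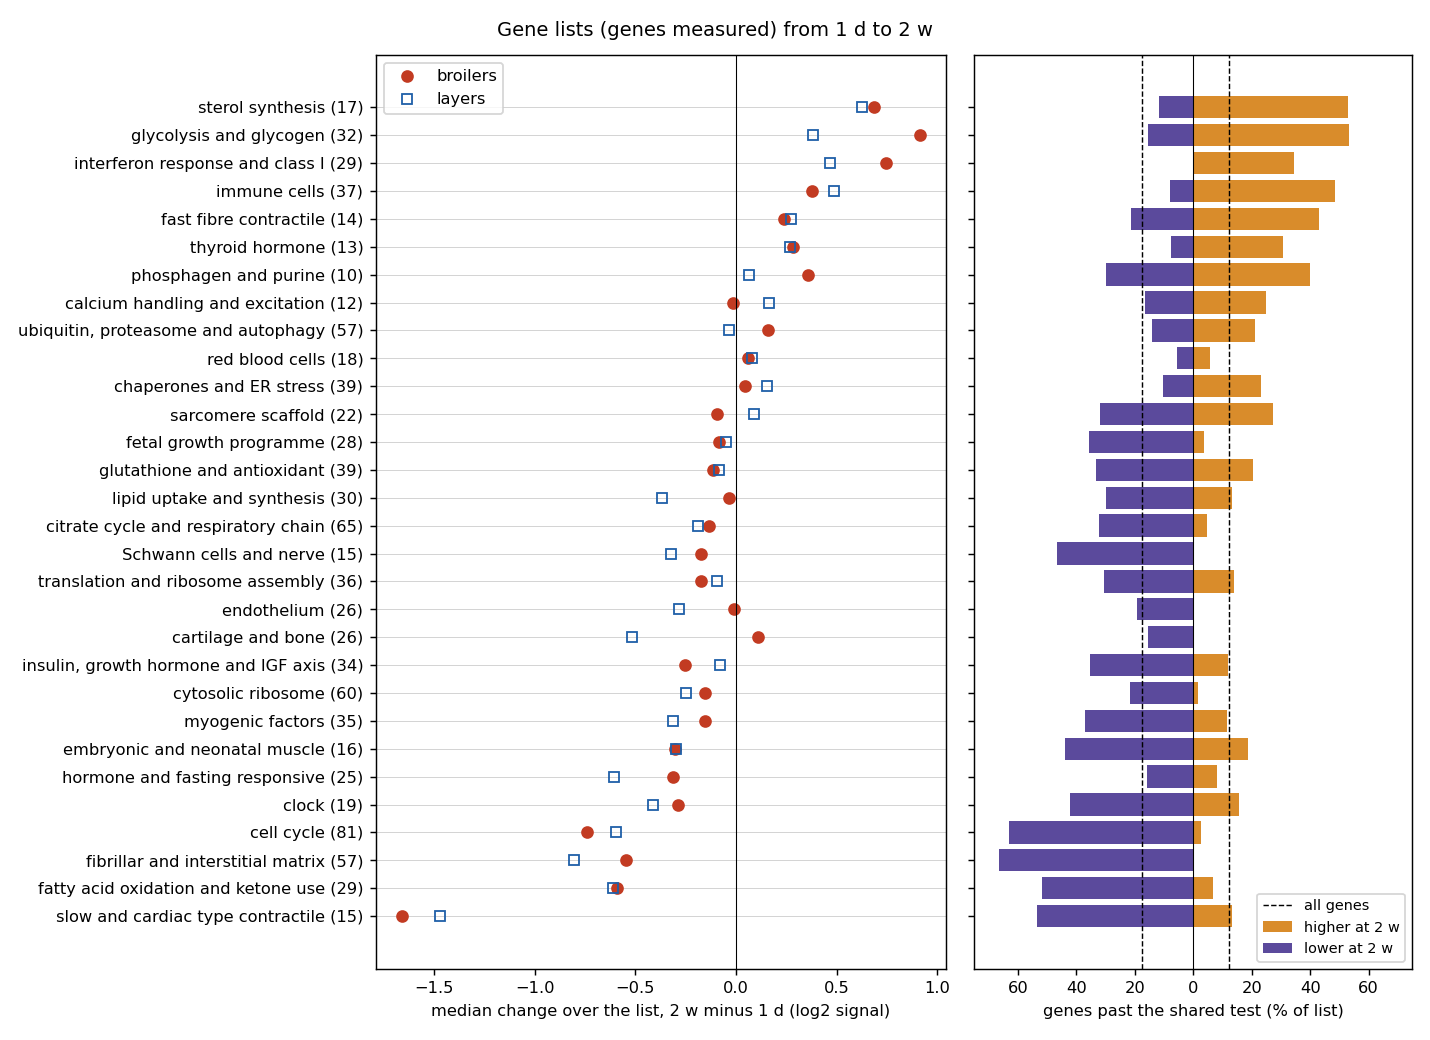
Left, the median change from 1 d to 2 w (log2 signal) over each of 30 gene lists in broilers (red) and layers (blue), with the number of genes measured in brackets. Right, the percentage of each list that passed the shared test, with dashed lines at the 12.4% of all genes that rose and the 17.7% that fell. Glycolysis and sterol synthesis had the largest shares of increases, and the matrix and the cell cycle the largest shares of decreases.

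ME1, malic enzyme, which makes NADPH for lipid synthesis, rose from 5.50 ± 0.12 to 9.47 ± 0.22 in broilers, and 5.70 ± 0.06 to 9.34 ± 0.16 in layers (14.0-fold, adjusted p = 1.29e-06). Genes of sterol synthesis rose in 9 of 17 cases and fell in 2, with a median of 0.69 in broilers and 0.63 in layers. INSIG1, a sterol sensor of the endoplasmic reticulum, rose 12.6-fold (adjusted p = 0.000130), and FDPS, farnesyl diphosphate synthase, 4.11-fold (adjusted p = 9.65e-05). FASN, fatty acid synthase, changed by -0.42 and -0.41 and was not called (adjusted p = 0.158).

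Genes of amino acid synthesis were among the 20 largest increases. PSPH, which completes the synthesis of serine, rose from 6.12 ± 0.13 to 10.04 ± 0.11 in broilers, and 6.25 ± 0.21 to 9.96 ± 0.11 in layers. ASNS, asparagine synthetase, rose 11.1-fold (adjusted p = 0.00114), and at 4 w, 6 w and 8 w it was at 6.84, 7.17 and 5.73 in broilers and at 5.38, 7.87 and 6.78 in layers. The rest of that group were SLC25A30, a mitochondrial carrier, which rose by 4.21 in broilers and 4.12 in layers, JPH3, a junctophilin, by 3.09 and 3.45, and MYLK4, a myosin light chain kinase, by 3.70 and 3.30. CCDC180, FRMD5, CLIP4, PGPEP1L and the unnamed gene LOC771456 rose by at most 5.40 in either line. Of the 3 probe sets of FRMD5, 1 was called.

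Among the 20 largest decreases outside muscle structure and fuel was STC2, stanniocalcin 2, a secreted glycoprotein, which fell from 8.15 ± 0.17 to 3.51 ± 0.03 in broilers, and 7.53 ± 0.19 to 3.02 ± 0.41 in layers (23.8-fold, adjusted p = 1.11e-05). STK17A and DAPK2, kinases of the death associated family, fell by 5.30 and 3.38 in broilers and by 5.10 and 2.96 in layers. Of the 5 probe sets of DAPK2, 2 were called. PANK1, which begins the synthesis of coenzyme A, fell by 3.17 and 3.76, and CDO1, which oxidises cysteine, by 2.81 and 3.73. LCAT, which esterifies plasma cholesterol, fell by 3.05 and 4.85, AHSG, the plasma protein fetuin, by 3.85 and 3.52, and ADPRHL1 by 4.58 and 4.13. C8orf22, CGTL and LOC423629 completed the group with decreases of between 2.97 and 4.48 in each line.

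Of 81 measured genes of DNA replication and division 51 fell and 2 rose, and 72 were lower at 2 w in each line. Over all 13009 genes, 6093 were lower in broilers and 5963 in layers. The median change was -0.74 in broilers and -0.60 in layers. TYMS, which makes thymidylate, was 4.48-fold lower (adjusted p = 0.000241), HELLS, a chromatin remodeller of dividing cells, 3.44-fold lower, and MKI67, the proliferation antigen Ki-67, fell from 8.51 ± 0.22 to 7.11 ± 0.25 and from 8.06 ± 0.14 to 6.82 ± 0.21 (2.50-fold, adjusted p = 0.00268). The 2 genes that rose were CDKN1A, the inhibitor p21 of cyclin dependent kinases (2.81-fold, adjusted p = 0.00161), and NDE1, which acts with dynein at the spindle (5.40-fold, adjusted p = 0.000241). Of the 53 calls 25 held whichever pool was left out, and PCNA, TOP2A and CDK1 were not among them (largest adjusted p = 0.0854, 0.0718 and 0.106).

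Of the 35 myogenic factors 13 fell and 4 rose. The markers of satellite cells did not move together. PAX7 changed by -0.12 in broilers and 0.19 in layers (adjusted p = 0.927) and MYOD1, the myoblast factor, by -0.08 and -0.17 (adjusted p = 0.637). MYF5 fell by 0.54 and 1.06 and MYOG, myogenin, rose by 1.09 and 0.53, and both calls were lost with 1 pool left out (adjusted p = 0.0738 and 0.0635).

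MSTN, myostatin, which restrains muscle mass, rose from 5.29 ± 0.25 to 8.01 ± 0.12 in broilers, and 5.11 ± 0.38 to 7.70 ± 0.26 in layers (6.31-fold, adjusted p = 3.10e-05). FST, follistatin, which binds and blocks it, fell from 8.22 to 6.30 in broilers, and 8.50 to 6.05 in layers (4.55-fold, adjusted p = 0.000224). The arrays of both ages did not overlap in either gene in either line. MUSTN1, a nuclear protein of muscle regeneration, fell 5.05-fold (adjusted p = 0.000940), and ACVR2B, the receptor that myostatin binds, by 0.89 and 1.15.

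In the insulin and IGF axis 12 of 34 genes fell and 4 rose. IRS2, an adaptor of the insulin receptor, was 5.92-fold lower (adjusted p = 0.00151), MTOR, the growth kinase, 3.11-fold lower (adjusted p = 0.000365) and IGFBP2, which binds IGF, lower by 2.23 and 1.64. PRKAG3, the muscle subunit of the AMP activated kinase, rose 5.10-fold (adjusted p = 1.72e-05). Of genes known in mammals as high before or soon after birth, 10 of 28 fell and 1 rose. IGF2BP2 and IGF2BP3, which bind the messenger of IGF2, were 5.01-fold and 4.62-fold lower (adjusted p = 4.19e-05 and 1.92e-05), and DLK1, a membrane protein of precursor cells, was 4.81-fold lower.

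Both deiodinases that set the thyroid hormone of a tissue moved. DIO2, which activates the hormone, rose from 4.53 ± 0.31 to 6.12 ± 0.32 in broilers, and 4.14 ± 0.08 to 6.76 ± 0.36 in layers (4.29-fold, adjusted p = 0.00214). DIO3, which inactivates it, fell from 6.59 ± 0.46 to 3.88 ± 0.06 and from 5.34 ± 0.48 to 3.98 ± 0.13 (4.10-fold, adjusted p = 0.00111). Of the 13 genes of that list 4 rose and 1 fell.

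Of the 57 measured genes of connective tissue matrix 38 fell and none rose (limma adjusted p under 0.05), with a median of -0.55 in broilers and -0.80 in layers. THBS2, thrombospondin 2, fell from 6.95 ± 0.50 to 4.25 ± 0.06 in broilers, and 7.14 ± 0.10 to 4.20 ± 0.12 in layers (7.06-fold, adjusted p = 1.11e-05). COL12A1 and COL14A1, collagens that lie on fibrils, were 6.37-fold and 6.33-fold lower, and LOX, which links collagen chains, 3.82-fold lower (adjusted p = 0.000849, 7.31e-05 and 0.000215).

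The fibroblast markers are matrix genes themselves, and DCN and LUM among them are members of that list, so that their decrease is no separate observation. By their brightest probe sets COL1A1, COL1A2, COL3A1, DCN and LUM all fell, by 0.42 to 0.75 on average. Their summed signal went from 14.68 in both pools of 1 d to 14.13 in broilers and 14.10 in layers. Of the 6 probe sets of COL3A1, 5 fell and 1 rose. The calls of all 5 genes were lost with 1 pool left out (largest adjusted p 0.0748 to 0.251). The part of fibroblasts in the decrease of the matrix genes was not tested.

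Schwann cells, which wrap nerve fibres in myelin, were marked by MBP, SOX10 and PMP22, and all 3 fell. PMP22, a protein of compact myelin, went from 11.22 ± 0.08 to 9.32 ± 0.13 in broilers, and 10.86 ± 0.13 to 9.61 ± 0.25 in layers (2.99-fold, adjusted p = 0.000684). UGT8, which makes the galactolipid of myelin, was 4.54-fold lower and SOX10, the transcription factor of the lineage, 2.54-fold lower (adjusted p = 0.000561 and 0.000384). MBP, myelin basic protein, was 3.97-fold lower by its brightest probe set, but of its 3 probe sets 2 fell and 1 rose. On the whole list 7 of 15 fell and none rose. Of the 26 genes of blood vessels 5 fell (19.2%), near the 17.7% of all genes. CDH5, the cadherin of endothelium, fell 1.83-fold (limma adjusted p = 0.00434). PECAM1 changed by -0.01 in broilers and -0.15 in layers, and neither it nor KDR or TEK was called. VWF changed by 0.46 and 0.62 and was not called by its brightest probe set, but 2 of its 3 probe sets rose.

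Of 37 markers of white blood cells 18 rose and 3 fell, and 32 were higher at 2 w in each line. Over all 13009 genes, 6916 were higher in broilers and 7046 in layers. Whichever pool was left out, 6 of the increases and 2 of the decreases held. CD74, the invariant chain of class II, rose from 8.11 ± 0.20 to 10.78 ± 0.29 in broilers, and 9.26 ± 0.20 to 10.83 ± 0.45 in layers (4.34-fold, adjusted p = 0.000563), and BLB1, a class II beta chain, 4.30-fold (adjusted p = 5.33e-05). Of the 5 probe sets of BLB1, 3 were called. PTPRC, the antigen CD45 of all white blood cells, was dim but rose from 3.73 to 4.46 and from 3.58 to 4.42 (adjusted p = 0.00678, and up to 0.0696 without the broiler 2 w or layer 1 d pool). Of 5 defining markers PTPRC, CD3E and CD74 rose. The call of CD3E was lost without the broiler 2 w, layer 1 d or layer 2 w pool (largest adjusted p = 0.126). CSF1R changed by 0.16 in broilers and -0.44 in layers and LCP1 by 0.27 and 0.52, and neither was called (limma adjusted p = 0.714 and 0.127). The summed signal of all 5 was 9.27 and 11.08 in broilers and 9.94 and 11.07 in layers at 1 d and 2 w. At 2 w most of this sum came from CD74. The part of the sum in the other increases was not tested. CXCL12, a chemokine that stromal cells make, fell 4.00-fold (adjusted p = 0.000188).

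Of 29 genes of the interferon response and class I, 10 rose and none fell. B2M, the light chain of class I, rose from 9.12 ± 0.02 in broilers and 8.78 ± 0.15 in layers, by 2.09 and 2.22 (4.45-fold, adjusted p = 1.39e-05), and IRF1, an interferon regulatory factor, 3.44-fold (adjusted p = 0.00326). IFI6 and IFIT5 rose by 2.45 and 2.77 in broilers and 2.91 and 2.53 in layers, and both calls were lost without the broiler 2 w or the layer 1 d pool (largest adjusted p = 0.0691 and 0.177). Of the 10 calls 2 held whichever pool was left out. The layer pool of 4 w stood apart on this list too, at a median of 2.76 above 1 d against 0.95 in broilers of 4 w.

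Most of the remaining lists were mixed. Ubiquitin, proteasome and autophagy genes rose in 12 of 57 cases and fell in 8, with ASB2, a ligase subunit of muscle, up by 2.60 and 2.62 (adjusted p = 0.00778, and 0.0662 without the broiler 2 w pool) and ULK2, a kinase that starts autophagy, down 3.48-fold. TRIM63, the muscle ligase MuRF1, fell by 0.61 and 1.18 (adjusted p = 0.0325, and 0.217 with 1 pool left out). Cytosolic ribosomal proteins were lower at 2 w in 50 of 60 cases in broilers and 55 in layers, with small medians of -0.16 and -0.25. Over all 13009 genes, 6093 were lower in broilers and 5963 in layers. Besides RPL3, 12 of the 60 fell by the shared test, by at most 0.77 in either line, and RPS28 rose. Of these 14 calls that of RPL3 alone held whichever pool was left out. Of 39 chaperones 9 rose and 4 fell, with HSP90AA1 2.70-fold higher (adjusted p = 0.00152). Of 39 antioxidant genes 8 rose and 13 fell, of 36 genes of translation 5 and 11, of 12 genes of calcium handling 3 and 2, of 10 phosphagen and purine genes 4 and 3, and of 18 red cell genes 1 and 1.

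Of 19 clock genes 8 fell and 3 rose. PER3, a repressor of the clock, fell from 5.54 ± 0.50 to 3.89 ± 0.10 in broilers, and 6.81 ± 0.35 to 3.49 ± 0.07 in layers (5.58-fold, adjusted p = 0.00262), and PER2 by 0.89 and 2.17, a call lost without the layer 2 w pool (adjusted p = 0.0718). No source used here gives the hour of sampling, and the ages differed in their light schedule. KLF15, a factor that glucocorticoids and fasting raise, fell 4.00-fold (adjusted p = 0.00707, and 0.0534 without the broiler 2 w pool). On that list of 25 genes 4 fell and 2 rose.

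The lists differed in how many of their calls held whichever of the 4 pools was left out. Of the fuel genes, 17 of 22 calls in glycolysis held, 9 of 17 in fatty acid oxidation, 7 of 13 in lipid uptake and synthesis and 4 of 11 in sterol synthesis. Among contractile lists 4 of 9 held for fast fibres, 4 of 10 for slow fibres, 6 of 10 for embryonic muscle and 8 of 13 for the scaffold. The matrix kept 19 of 38 calls, Schwann cells and nerve 6 of 7 and blood vessels 3 of 5. The growth lists kept 8 of 17 for myogenic factors, 8 of 16 for the insulin and IGF axis, 8 of 11 for the fetal genes and 2 of 5 for thyroid hormone. In the remaining lists 4 of 20 held for ubiquitin, proteasome and autophagy, 5 of 13 for chaperones, 9 of 21 for antioxidant genes, 5 of 16 for translation, 2 of 5 for calcium handling, 4 of 7 for phosphagen and purine, 1 of 2 for red cells, 4 of 11 for the clock and 1 of 6 for genes that respond to fasting.

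For the 40 genes with the largest shared changes, the later pools showed whether the level of 2 w lasted. In 19 of the 20 that rose and 16 of the 20 that fell, all 6 pools of 4 w, 6 w and 8 w lay on the 2 w side of the middle between 1 d and 2 w. The exceptions were ASNS, CSRP3, MYL10, MYL3 and MYH1B. CSRP3 was at 6.30 and 6.99 in layers of 4 w and 6 w, of which the second lay on the 1 d side, and between 2.93 and 3.06 in all later broilers. The pools of those ages enter the fit that called these genes, so that the comparison is a description.

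**Figure D4:**
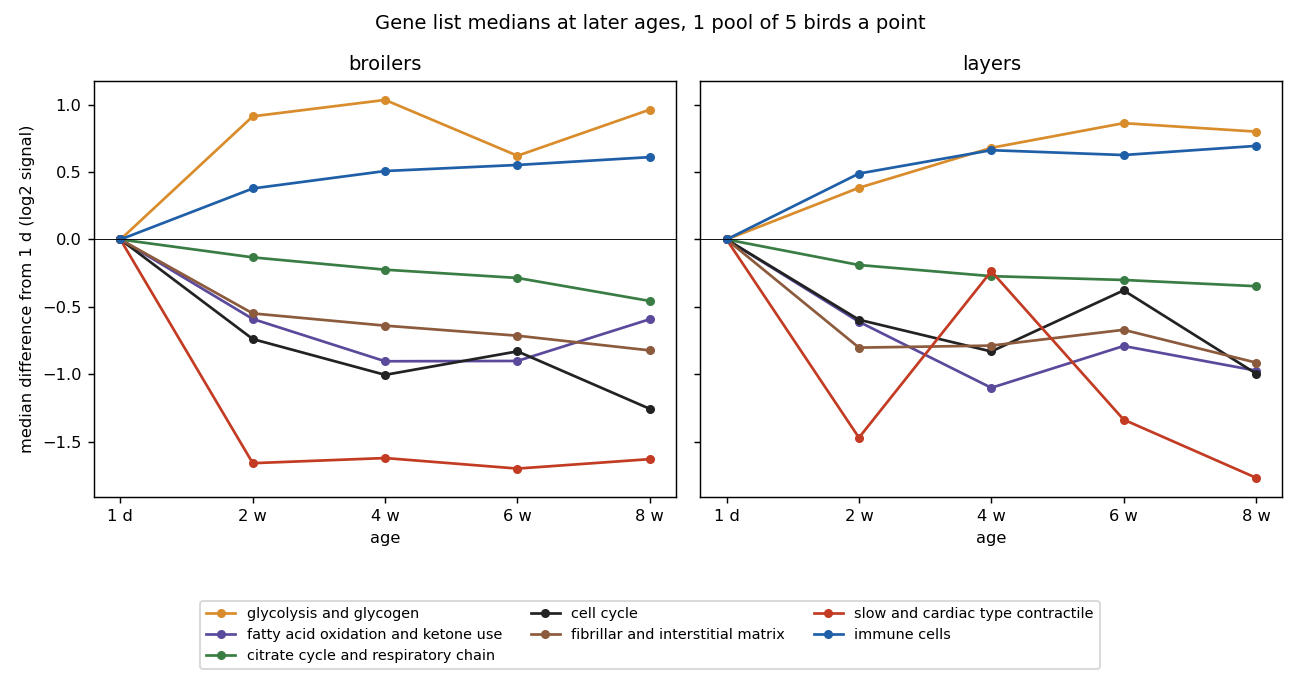
Median difference from the 1 d pool of the same line (y axis, log2 signal) over 7 gene lists at each age (x axis) in broilers (left) and layers (right), with 1 pool of 5 birds a point. At 2 w the medians lay between -1.66 and 0.91 in broilers and between -1.47 and 0.49 in layers. Some lists moved farther afterwards, and no median was tested. The citrate cycle and respiratory chain list went from -0.13 at 2 w to -0.46 at 8 w in broilers. Glycolysis and glycogen went from 0.38 at 2 w to 0.86 at 6 w in layers. The slow and cardiac type list came back to -0.24 in layers of 4 w while it stayed at -1.62 in broilers of 4 w.

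Changes of 1 line alone were counted where that line passed its limits and the other changed less than 1.5-fold or in the opposite direction. The shared test averages both lines, so that a gene counted here can also pass it. LOC418543, LGI1, MBTPS2, LRRC4C and COL9A3 did so, and each of these shared calls was lost with 1 pool left out. In broilers only, 125 probe sets rose (0.325%) and 214 fell (0.557%). In layers only, 114 rose (0.297%) and 281 fell (0.731%). Members just inside and outside the limit differed little, as with SLC10A7 at -1.001 in broilers and -0.56 in layers (inside) and RNF217 at -0.9985 in broilers and -0.25 in layers (outside). Without array 2 of every pool, 559 probe sets moved in broilers only in place of 339.

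The difference between the lines in the change was tested with an added term in the same fit. It called none of the 38439 probe sets (0%), with 1879 at an unadjusted p under 0.05 from limma and a smallest adjusted p of 0.715. A change of 1 pool also enters the error of that fit, so that it cannot call such a change, and its count does not show that the lines changed alike. A fit chosen after the data had been seen, in which the line difference was free at both ages and the spread came from the line differences of 4 w, 6 w and 8 w, called 44 probe sets (0.114%). The change was higher in broilers for 28 of them and lower for 16, and 10 of the 339 broiler only and 21 of the 395 layer only probe sets were among them. Without the pools of 4 w that fit called 136, and without those of 8 w 80.

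The layer only decreases were led by genes of cartilage and bone. COL10A1, the collagen of hypertrophic cartilage, was read at 7.14, 7.65 and 7.52 in layers at 1 d and at 2.83, 2.84 and 2.61 at 2 w. In broilers it was at 2.78 to 3.53 at 1 d and 2.62 to 2.92 at 2 w, the dim end of the arrays, so that it stood out in 1 pool alone. The difference between the changes was 4.30. It passed the fit chosen afterwards, but the spread of that fit came from later pools, in which COL10A1 was at 2.46 to 2.61. That spread does not measure how pools vary at the level of the layer 1 d pool.

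MATN3, a matrilin of cartilage, fell from 6.76 ± 0.36 to 2.99 ± 0.14 in layers and changed by 0.11 in broilers. IBSP and SPP1, sialoproteins of bone, fell by 2.68 and 2.42 in layers and changed by 0.26 and 0.46 in broilers. HAPLN1, the link protein of cartilage, COL9A3, a cartilage collagen, and EPYC, an epiphysis proteoglycan, fell by 2.84, 3.27 and 1.89 in layers and changed by -0.17, -0.52 and -0.10 in broilers. Of the 4 probe sets of COL9A3, the shared test called 1 lower and 1 higher.

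On the whole cartilage and bone list, 11 of 26 genes were at least 2-fold lower in layers with arrays apart and 3 in broilers. Over all 13009 genes, 854 were lower in this way in layers and 829 in broilers. The shared test called 4 of the list, all lower (15.4%, against 17.7% of all genes). The summed signal of 6 defining markers was 8.47 in the layer 1 d pool and 6.99 to 7.27 in the other 3 pools. COL2A1, the main cartilage collagen, gave no call by its brightest probe set, but another of its probe sets went from 8.05 to 3.92 in layers and from 5.98 to 4.16 in broilers. A probe set of COL9A1 went from 6.82 to 2.76 in layers and from 2.89 to 2.68 in broilers. This signal was highest in the layer 1 d pool, and a few genes also fell in broilers. Whether the excess in that single pool came from the line or from its tissue piece cannot be told apart. ANKRD22, CD69L and SMPD3 were also highest in the layer 1 d pool, with decreases of 3.44, 1.80 and 2.48 in layers and changes of -0.30, 0.63 and -0.09 in broilers. Of the layer only decreases named here SPP1 and CD69L did not pass the test of the difference (adjusted p = 0.117 and 0.184).

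**Figure D5:**
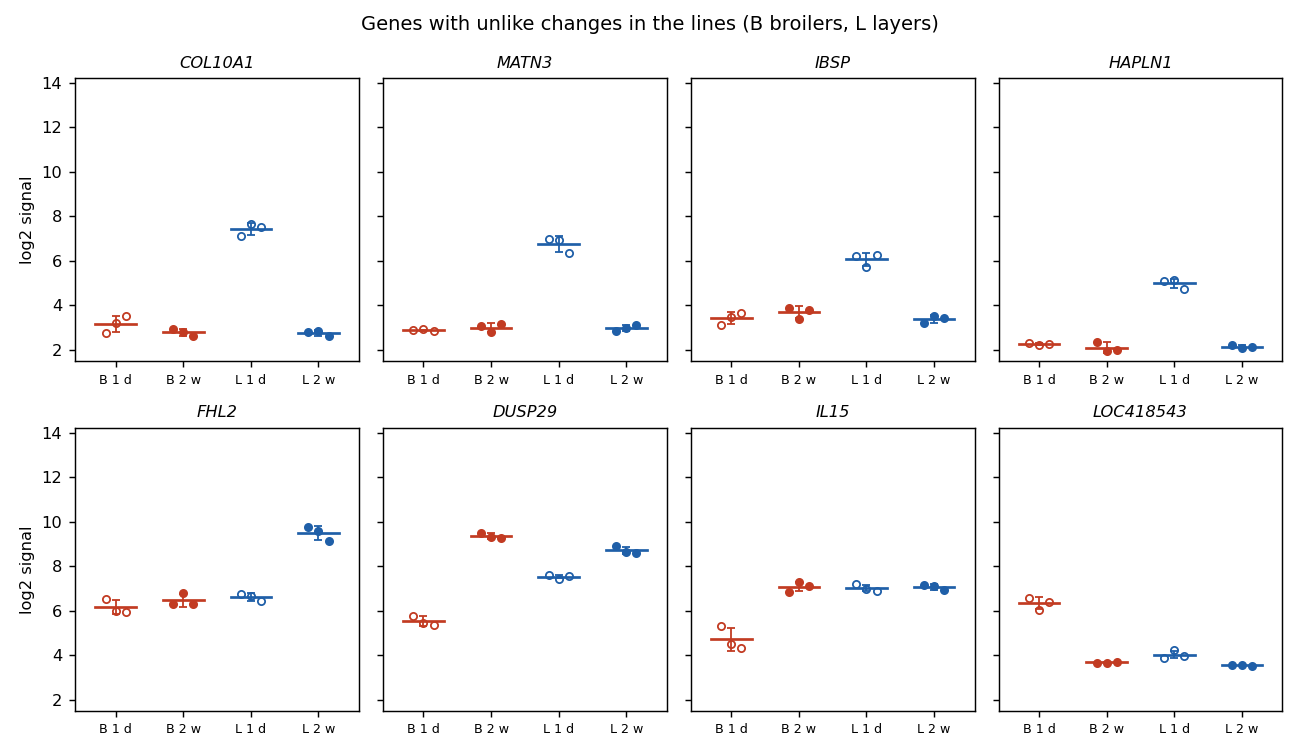
Log2 signal (y axis) of 8 genes with unlike changes in the lines, of which IL15 did not pass the test of the difference (adjusted p = 0.138), on the 3 arrays of each pool (B broilers, red, and L layers, blue; open points 1 d, filled points 2 w), with the mean and SD of the 3 arrays. COL10A1, MATN3, IBSP and HAPLN1 were high in the layer 1 d pool alone, and FHL2 in the layer 2 w pool alone.

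Among layer only increases FHL2, a LIM protein of heart and muscle, was read at 6.77, 6.67 and 6.41 at 1 d and 9.76, 9.57 and 9.15 at 2 w, while broilers stayed between 5.93 and 6.78. It was also at 8.51 to 9.35 in the later layers and 5.06 to 6.05 in the later broilers. MAT1A, which makes S-adenosylmethionine, rose from 7.90 ± 0.11 to 9.62 ± 0.11 in layers, up to the level that broilers held at both ages, 9.71 and 9.91. IL18, a cytokine, rose by 1.002, UTS2R, the urotensin receptor, by 1.49 and MHCY4, a class I related gene, by 1.76. ACCSL, SMCO4, ARPP21 and OSBP2 rose by 1.17 to 1.60. In broilers UTS2R went the other way, by -0.96. Of the genes of this paragraph FHL2 alone passed the test of the difference (adjusted p = 0.0485 in the fit chosen afterwards).

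Among broiler only increases LOC770705, an unnamed gene, rose from 3.50 ± 0.15 to 8.57 ± 0.13 in broilers and was at 11.46 and 11.68 in layers. IL15, a cytokine that muscle makes, rose from 4.72 ± 0.51 to 7.08 ± 0.21 in broilers and was at 7.02 and 7.07 in layers. Both genes were thus below the layers at 1 d, and IL15 was level with them at 2 w. AOX1, aldehyde oxidase, LRRC4C, an adhesion protein of synapses, FGF16, a growth factor, RBP7, which binds retinol, WHAMM, an actin nucleator, and PPP1R27, a phosphatase subunit, rose by 1.04 to 2.16. In layers PPP1R27 went the other way, by -0.84. No gene of this paragraph passed the test of the difference, and the smallest adjusted p was that of LOC770705 (0.0528 in the fit chosen afterwards).

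The broiler only decreases included SLC38A4, an amino acid transporter, which fell from 5.84 ± 0.51 to 3.72 ± 0.25 while layers stayed at 5.40 at both ages. PLCB1, a phospholipase, ANO1, a chloride channel, AQP4, a water channel, LGI1, a secreted protein of nerve, MBTPS2, a protease that frees sterol regulatory factors, and RIMBP2, a protein of the synapse, fell by 1.03 to 1.99. In layers RIMBP2, ANO1 and AQP4 went the other way, by 0.85, 0.67 and 0.65. The unnamed genes LOC418543 and LOC425001 fell by 2.66 and 1.52. In the fit chosen afterwards LOC418543 and LOC425001 passed the test of the difference (limma adjusted p = 0.0101 and 0.0460), and the other genes of this paragraph did not. In the pools of 4 w, 6 w and 8 w both were at 2.41 to 3.61. The spread of that fit thus does not measure how pools vary at the level of the broiler 1 d pool.

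Opposite changes of at least 2-fold, with arrays apart in both lines, were rare, at 7 probe sets. Of named genes, CXCL14, a chemokine, rose by 1.32 in broilers and changed by -1.003 in layers, and CHAC1, which degrades glutathione, fell by 1.01 in broilers and rose by 1.01 in layers. LOC107052719 rose by 2.09 in broilers and fell by 1.12 in layers. Other genes moved in both lines but by different amounts. DUSP29, a phosphatase of muscle, rose from 5.53 ± 0.22 to 9.34 ± 0.13 in broilers, and 7.53 ± 0.09 to 8.71 ± 0.17 in layers, a difference of 2.64 (adjusted p = 0.0159 in the fit chosen afterwards). For RPL3L the difference was 2.41 (adjusted p = 0.0135 in the same fit). The spread of that fit came from later pools, in which RPL3L was at 11.77 to 12.06 and DUSP29 at 8.16 or above. At 1 d RPL3L was at 4.26 in broilers and 6.93 in layers. For both genes that spread does not measure how pools vary at the lower level of 1 d.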

How the data were processed

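The authors summarised each array by RMA into background corrected, normalized log2 values per probe set and took present calls from MAS5. No source used here gives versions. The deposited log2 values were used unchanged, without the 96 control probe sets, and present calls were left aside. Their number, 3 arrays per pool, limits the precision. The platform annotation named 27168 probe sets by 1 symbol, left 11094 unnamed and gave 177 several symbols, and 26853 had a gene in a RefSeq table (assembly GRCg7b) used for names only. Means over the 3 arrays of each pool were fitted in limma 3.58.1 (R 4.3.3, eBayes with an intensity trend), tested on simulated data first. The members, gene lists and tests were chosen with earlier results of these data known. Genes named were the 20 largest shared increases and decreases, up to 5 members per list with the defining ones, the 10 largest changes of each line alone in each direction, and those with a line difference; the related pairs and a few list members were added after their values were seen. P-values measure spread between pools over the ages, with 1 pool per line and age.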

Additional observations from a re-analysis of the deposited data

Results flagged for a closer look

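Results are given here where the test of the difference between the lines, in the fit that left the line difference free at 1 d and 2 w, passed an adjusted p under 0.05 from limma for the brightest probe set of a gene. Values are the broiler change minus the layer change on the log2 scale. The spread of that fit came from the pools of 4 w, 6 w and 8 w. In those pools COL10A1, HAPLN1, EPYC, PTPRZ1, LOC425001 and GK2 were below the lower quartile of the arrays. COL9A3, CA10, MATN3, SLC35F1, IBSP, FSHR, SMPD3 and LOC418543 were at 2.75 to 3.61 there, at or near that quartile. ANKRD22, CPED1 and PPP1R1C were at 3.20 to 4.25, also far below their highest level of 1 d. For all these genes the spread does not measure how pools vary at the higher level of 1 d. RPL3L and DUSP29 were higher in the pools of 4 w, 6 w and 8 w than at 1 d. For them the spread does not measure how pools vary at the lower level of 1 d. The difference was above 0 for COL10A1 (4.30), MATN3 (3.88), ANKRD22 (3.15), IBSP (2.94), COL9A3 (2.75), HAPLN1 (2.68), SMPD3 (2.39) and EPYC (1.79), all of which were high in the layer 1 d pool. It was also above 0 for DUSP29 (2.64), RPL3L (2.41), GK2, a glycerol kinase (2.04), CPED1 (2.00) and CA10, a carbonic anhydrase related protein (1.72). It was below 0 for FHL2 (-2.57), LOC418543 (-2.18), PPP1R1C, a phosphatase inhibitor (-2.04), LOC425001 (-1.60), SLC35F1 (-1.57), PTPRZ1, a receptor phosphatase (-1.41), and FSHR, the receptor of follicle stimulating hormone (-1.40).

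The lines moved in opposite directions in 3 further genes, with the arrays of 1 d and 2 w apart in both lines, and these differences did not pass that test. CHAC1 changed by -1.01 in broilers and 1.01 in layers, CXCL14 by 1.32 and -1.003, and LOC107052719 by 2.09 and -1.12.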

How the results depend on the processing

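The shared change was called for 9146 probe sets. Taking the 30 arrays as samples gave 15024, and with a replicate block on the array number 16005. No label says what the array number marks, and the arrays were not treated as paired, since not every pair of same-numbered arrays had a correlation of deviations above 0.1. Their median was 0.16, from -0.43 to 0.63, against -0.09 for other pairs, and 23 of 30 arrays were closest to their own number, a hint of an effect shared by number. With 1 of the 4 pools left out the count was 4230 to 6197, and without array 1, 2 or 3 of every pool 6579 to 8804. Requiring 2-fold and arrays apart in both lines as well left 1625. Other alternatives stayed within 1.5 times.

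For the line difference, a fit that cannot call a change of 1 pool gave 0, which became 881 with arrays as samples and 1254 with the replicate block, and 44 with the line free at 1 d and 2 w, or 136, 53 and 80 without the pools of 4 w, 6 w and 8 w.

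Within a line, a limit of 1.5-fold in place of 2-fold gave 5863 probe sets in broilers and 6112 in layers, with 1968 and 2098 in 1 line only. A limit of 4-fold gave 444 and 461, with 10 and 19 in 1 line only. Leaving out an array number gave 2474 to 3037 in broilers and 2660 to 2780 in layers, with 292 to 559 and 390 to 465 in 1 line only.

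The 238 genes with a shared call that the text names or the naming rule picked had 4500 values under the alternatives, of which none changed direction and 287, of 78 genes, lost the call. Of 60 list medians 2 changed sign, those of the sarcomere scaffold and the chaperones. The cause of these shifts was not tested. Dim signals near 3 limit the decreases that can be measured, and 1 pool per line and age limits every change of 1 line.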

Other observations

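Genes outside the lists, chosen after their values were seen, showed further shared changes. Collagen IV of the alpha 5 and alpha 6 type, which forms basement membranes around fibres, fell, with COL4A5 from 9.07 to 6.17 in broilers, and 9.17 to 6.10 in layers (limma adjusted p = 0.000189) and COL4A6 from 8.22 to 5.79 and from 8.06 to 5.51. LECT2, a plasma protein, and TTPA, both known from liver, fell by 3.29 and 2.26 in broilers and by 2.64 and 2.24 in layers (limma adjusted p = 1.11e-05 and 1.55e-05), to signals of 2.80 to 3.75. The transporters SLC16A7, for pyruvate, and SLC6A6, for taurine, fell by 2.70 and 2.07 in broilers and by 3.58 and 3.42 in layers. BCL2, which blocks cell death, fell by 2.22 and 2.24, and NR4A3, an orphan receptor, by 2.70 and 2.38. The 3 arrays of the broiler 1 d pool differed widely for NR4A3 and SLC6A6, with an SD of 1.32 and 0.97. The median SD of the arrays within the 4 pools was 0.15.

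PARK7, a redox sensor, rose from 8.74 to 11.61 in broilers, and 8.72 to 11.55 in layers (adjusted p = 1.11e-06), GLRX, glutaredoxin, by 2.90 and 2.53, and GPD2, the mitochondrial partner of GPD1, by 2.40 and 2.35 (adjusted p = 4.14e-05). METTL21C, a methyltransferase of muscle, rose by 2.41 and 1.61. A probe set that the platform annotation gives to PGK2, a phosphoglycerate kinase, rose from 9.86 and 10.57 to 12.86 and 12.85 in broilers and layers.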
